A study of Homo sapiens with 48 samples.

Results

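RNA-Seq levels of 10 genes of the integrated stress response were compared across 16 conditions of prostate cancer cells: the transcription factors ATF4, ATF3, ATF5 and DDIT3 (the gene of CHOP), the feedback genes TRIB3 and PPP1R15A (the gene of GADD34), and the effectors DDIT4 (REDD1), SESN2 (sestrin 2), CHAC1 and NIBAN1. The 10 genes were picked by symbol, without a cutoff on their values, from 61815 human genes in the count table, and all 10 were among the 20009 genes tested. The list was chosen with earlier results of these data known, so counts over it, also beside the share of all genes, are descriptions. The cells were 22Rv1, a human prostate cancer line that grows without androgen, and 5 derivatives of it. Parental cells are called Rv1-WT, and Rv1-Luc is a derivative of them transduced with a lentivirus for firefly luciferase. The other 4 carry a CRISPR/Cas9 knockout of both CDK8 and CDK19, the kinases of the Mediator complex, and re-express 1 kinase from a lentivirus: wild-type CDK8 (dKO-8), CDK8 with the kinase-inactivating substitution D173A (dKO-8M), wild-type CDK19 (dKO-19) or CDK19 D173A (dKO-19M). Each line was grown for 72 hours with 500 nM of the CDK8/19 inhibitor SNX631 or with 0.1% DMSO as vehicle. The medium of all 6 lines held fetal bovine serum (FBS), a source of androgens, and Rv1-WT and Rv1-Luc were also cultured with charcoal-stripped serum (CSS), from which androgens have been removed. This gave 16 groups of 3 libraries, 48 in all. The knockout cells without a reintroduced kinase are not analysed here. Cells for CSS had also been passaged once in CSS beforehand and were plated more densely, so that serum and plating density cannot be told apart.

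The integrated stress response begins when one of several kinases phosphorylates the translation factor eIF2, upon amino acid shortage, unfolded protein in the endoplasmic reticulum, viral RNA or lack of heme. General translation then falls, while the mRNA of ATF4 is translated better through the short reading frames in its leader, so that much of the control of ATF4 happens at a step that RNA counts do not see. ATF4 protein, with partners of the bZIP family, activates genes of amino acid uptake and synthesis and most of the other genes described here, several of which (DDIT3, ATF3, ATF5) encode bZIP factors too. PPP1R15A closes the loop by bringing the phosphatase that removes the phosphate from eIF2.

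Library depth was 13231860 to 31496134 assigned counts. Rv1-WT libraries (up to 18202460) were shallower than those of the derivatives (from 19270958), so that line and depth cannot be told apart. None of the 10 genes was at 0 in any library; the lowest count was 33, for NIBAN1. Levels are given as CPM, counts scaled to library size with TMM factors, which compare a gene between samples but not genes with each other. A gene was called higher or lower where the edgeR quasi-likelihood test, adjusted over the 20009 genes by the Benjamini-Hochberg method (FDR), was under 0.01 and the fold change over 1.5, which is 0.585 on the log2 scale. Epithelial markers of luminal prostate cells were present in all 48 libraries, HOXB13 at 160 to 329 CPM and KRT18 at 401 to 779 CPM. Of 10 fibroblast and immune markers, all were at 2.08 CPM or less save COL1A1 (2.32 to 11.6 CPM) and LUM (0 to 16.6 CPM); CD3E was at 0 in 43 libraries. Their summed level in Rv1-WT was 16.1 to 23.1 CPM under vehicle and 21.9 to 27.5 CPM under SNX631, and in Rv1-Luc 11.8 to 14.8 and 14.2 to 17.9 CPM, with LUM called higher under the inhibitor in Rv1-WT and Rv1-Luc. The part of these markers in the results was not tested. CDK8 RNA was 68.7 CPM in dKO-8 and 123 CPM in dKO-8M under vehicle, against 23.4 to 28.5 CPM elsewhere. CDK19 RNA was 510 CPM in dKO-19 and 332 CPM in dKO-19M, but also 103 and 123 CPM in dKO-8 and dKO-8M. These counts do not separate the introduced transcript from that of an edited gene, so they do not check the knockout. They do not give protein levels either. By Western blot the paper found less CDK8 protein in dKO-8 than in parental cells, despite the higher RNA. It found far more CDK19 protein in dKO-19 and dKO-19M than in parental cells. The first vehicle library of dKO-19M stood apart from its replicates, and so did replicate 1 of Rv1-Luc in FBS under vehicle, in which CHAC1 was 4.77 CPM against 14.3 and 10.5 CPM. Results that turn on these libraries are given without them.

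The genes lie at separate loci (GRCh38): SESN2 at chr1:28259527-28282491, NIBAN1 at chr1:184790724-184974550, ATF3 at chr1:212565334-212620777, DDIT4 at chr10:72273920-72276036, DDIT3 at chr12:57516588-57521737, CHAC1 at chr15:40952962-40956519, PPP1R15A at chr19:48872392-48876057, ATF5 at chr19:49928702-49933935, TRIB3 at chr20:362835-397559 and ATF4 at chr22:39519695-39522685. DDIT3 shares 2769 bases with the gene ENSG00000285133 on its own strand (2.26 to 36.1 CPM) and overlaps MARS1 and MBD6 on the opposite strand. ATF5 overlaps NUP62, IL4I1 and ENSG00000269179 on the opposite strand. Fractional counts, a sign of reads divided among features, occurred for DDIT3 in 58.3% and for ATF5 in 56.2% of libraries, and in at most 2.08% for the other 8, so the levels of those 2 genes are less certain. DDIT4 has an antisense neighbour, DDIT4-AS1, which was not a row of the table used here.

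The promoters of the 10 genes were searched for the composite site of a C/EBP and an ATF factor that is the usual landing place of ATF4, spelled TGATGNAAN, on either strand, in RefSeq windows of 300 bases (250 before to 50 after an annotated start, GRCh38.p14). All 10 genes had a window. ATF3 and CHAC1 held the letters, 2 of 10 genes beside 4.45% of all 27305 genes, or 2 of 17 windows beside 3.61% of all 35116 windows. ATF3 held them in 1 of its 2 windows. The stretches are shown with those of the 3 genes among the 10 closest in pattern, described further on, that also held them, because these genes moved together. Each is written 5′ to 3′ on the strand of its gene, with the matched letters in capitals, and lies at chr1:212565191-212565249 for ATF3, chr15:40953236-40953294 for CHAC1, chr7:97872443-97872501 for ASNS, chr19:33374046-33374104 for CEBPG and chr16:70289661-70289719 for AARS1.
ATF3: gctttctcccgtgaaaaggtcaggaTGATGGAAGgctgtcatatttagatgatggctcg
CHAC1: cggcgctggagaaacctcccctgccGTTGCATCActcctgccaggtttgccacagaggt
ASNS: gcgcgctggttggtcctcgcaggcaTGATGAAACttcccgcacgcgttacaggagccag
CEBPG: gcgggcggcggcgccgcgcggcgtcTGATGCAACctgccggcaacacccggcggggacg
AARS1: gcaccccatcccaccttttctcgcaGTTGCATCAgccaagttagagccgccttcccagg
In CHAC1 and AARS1 the letters read on the opposite strand, as TGATGCAAC, the word that CEBPG carries on its own strand. The first matched base lay 191 bases before the RefSeq start in ATF3 and 210 in CHAC1. The loci given above come from another annotation (GENCODE) with other starts, and the CHAC1 stretch lies inside the CHAC1 locus given there. For the other 8 genes the result says only that these letters were not in these windows.

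Of the 10 genes, 8 were highest in Rv1-WT in CSS under vehicle, and all 8 had Rv1-WT in CSS under SNX631 as the second highest group. NIBAN1 spanned the widest range, from 1.58 CPM in dKO-19 under SNX631 to 225 CPM in Rv1-WT in CSS (143-fold). CHAC1 followed at 35.6-fold (2.62 to 93.3 CPM), DDIT4 at 15.2-fold (22.9 to 347 CPM) and DDIT3 at 11.2-fold (18.8 to 211 CPM). SESN2 spanned 9.05-fold, ATF3 4.64-fold, PPP1R15A 3.58-fold and TRIB3 2.95-fold. ATF4 RNA itself varied least, by 2.08-fold (406 to 842 CPM), and was highest in dKO-8 under vehicle. ATF5 ran another course: it was highest in Rv1-WT in FBS under vehicle (53.6 CPM), and the 8 groups of knockout derivatives held its 8 lowest means, down to 15.7 CPM in dKO-8. When the 16 group means of a gene were put in order, 4 of 15 neighbouring pairs (ATF4, ATF5 and PPP1R15A) to 10 of 15 (DDIT4 and NIBAN1) had replicates that did not overlap, and the other neighbours could not be ranked.

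**Figure D1:**
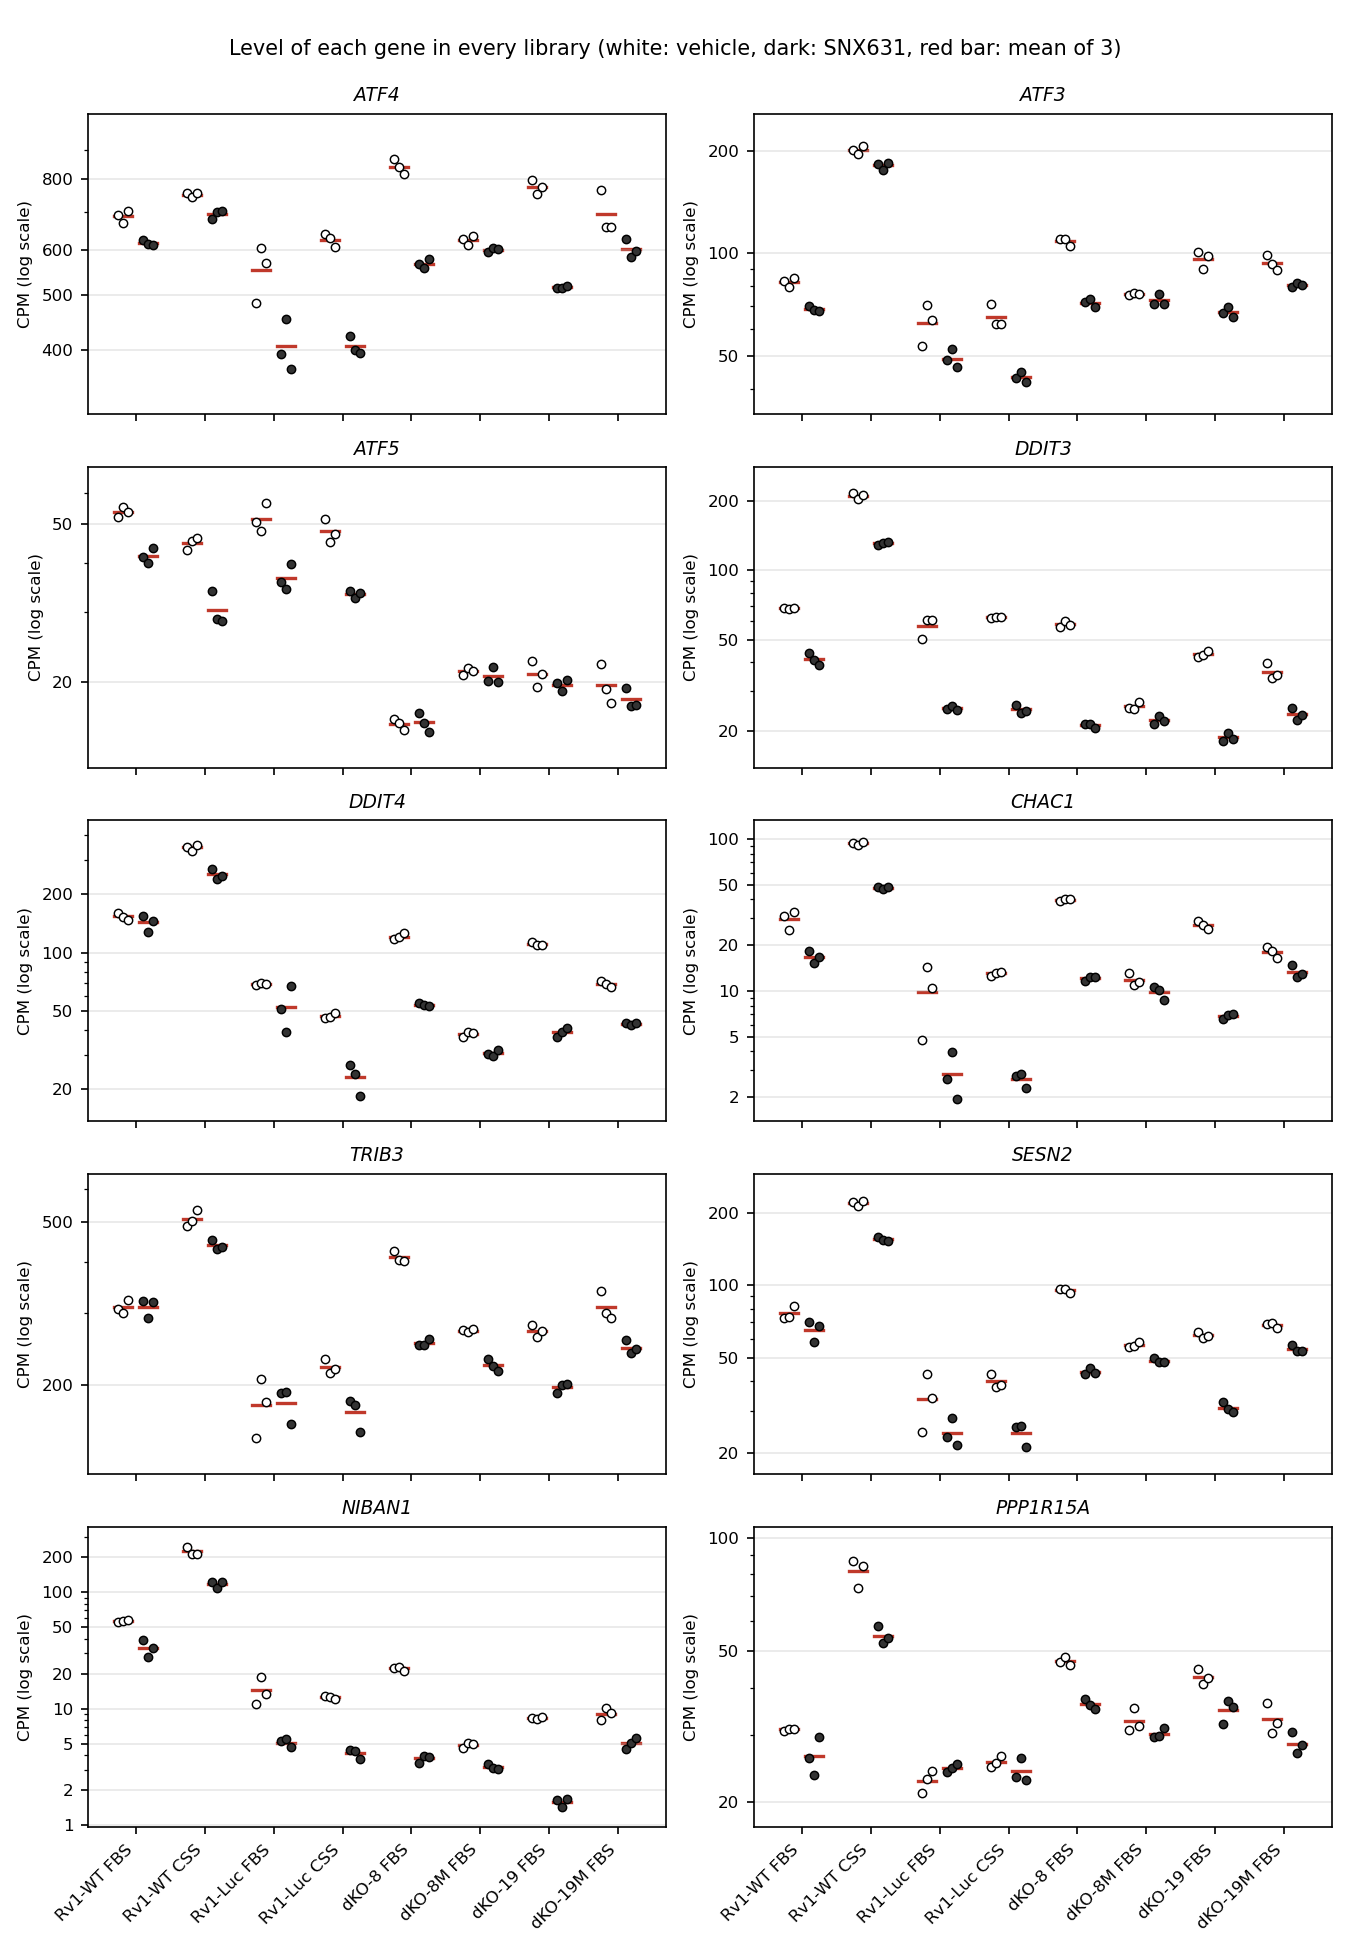
Level of each of the 10 genes in every library (CPM, log axis) by group, with 3 points per group (white for vehicle, dark for SNX631) and a red bar at the group mean. Of the 10 genes, 8 are highest in Rv1-WT in CSS under vehicle, and the dark points of DDIT3, CHAC1 and NIBAN1 lie below the white ones in all 8 settings.

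SNX631 lowered DDIT3, CHAC1 and NIBAN1 in every setting with an active Mediator kinase, and others of the 10 in some. Over 10 genes and 6 settings (Rv1-WT and Rv1-Luc, each in FBS and CSS, dKO-8 and dKO-19), 29 of 60 comparisons were called lower and 0 higher; the 6 settings share no library. These 3 genes were called lower in all 6, and 8 of 10 genes in at least 1. The counts were 3 of 10 in Rv1-WT in FBS, where 0.645% of all genes were called lower, 3 in Rv1-WT in CSS (1.25%), 3 in Rv1-Luc in FBS (1.34%), 7 in Rv1-Luc in CSS (1.61%), 7 in dKO-8 (1.05%) and 6 in dKO-19 (1.53%). The median log2 change of the 10 genes was -0.25, -0.53, -0.46, -0.67, -0.91 and -0.80 in the same order, beside 0 to 0.01 for all genes. In a test against 1.5-fold itself, 0 genes were called in Rv1-WT in FBS, 1 in Rv1-WT in CSS and 4 in Rv1-Luc in CSS. In Rv1-WT in CSS the replicates of all 10 genes lay lower under SNX631 without overlap, against 38.0% of all genes whose replicates did not overlap in either direction.

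DDIT3 encodes CHOP, the factor that turns a prolonged response toward cell death. In Rv1-WT in FBS its level was 68.4, 67.8 and 68.8 CPM under vehicle and 43.8, 40.6 and 38.7 CPM under SNX631. In dKO-8 it was 57.0, 60.1 and 58.1 CPM against 21.5, 21.6 and 20.6 CPM. The treated replicates were all lower, with no overlap. The log2 change was -0.74 ± 0.0572 (SE) in Rv1-WT in FBS (edgeR FDR 1.08e-15) and -0.68 ± 0.0478 in CSS, where levels were 216, 204 and 213 CPM before and 129, 131 and 133 CPM after treatment. In Rv1-Luc it was -1.18 ± 0.0565 in FBS and -1.32 ± 0.0574 in CSS. In dKO-8 it reached -1.46 ± 0.0584 (edgeR FDR 1.04e-27), a 2.75-fold drop, and in dKO-19 -1.20 ± 0.0621, from 42.1, 42.7 and 44.5 to 18.1, 19.7 and 18.5 CPM.

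NIBAN1 encodes a protein that is induced by endoplasmic reticulum stress and modulates phosphorylation of eIF2. In Rv1-WT in FBS it fell from 56.2, 56.3 and 57.7 CPM to 38.7, 28.0 and 33.5 CPM, a log2 change of -0.76 ± 0.0898 (edgeR FDR 8.54e-09). In dKO-8 it fell from 22.6, 22.7 and 21.3 CPM to 3.40, 3.94 and 3.87 CPM, and in dKO-19 from 8.34, 8.22 and 8.51 CPM to 1.63, 1.42 and 1.69 CPM. These were the strongest changes of any of the 10 genes under SNX631, -2.57 ± 0.131 (5.94-fold, edgeR FDR 3.44e-20) and -2.41 ± 0.192 (5.31-fold). In Rv1-WT in CSS the change was -0.92 ± 0.0736, from 246, 215 and 215 to 123, 110 and 124 CPM. In Rv1-Luc it was -1.49 ± 0.128 in FBS and -1.59 ± 0.142 in CSS.

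CHAC1 encodes an enzyme that cleaves glutathione and is switched on late in the response, through ATF4, ATF3 and CHOP. Its level in Rv1-WT in FBS was 31.0, 25.3 and 32.8 CPM under vehicle and 18.2, 15.3 and 16.6 CPM under SNX631, a log2 change of -0.83 ± 0.165 (edgeR FDR 0.000395). In Rv1-Luc in CSS 12.6, 13.2 and 13.3 CPM became 2.75, 2.83 and 2.28 CPM, a 4.97-fold drop (log2 -2.31 ± 0.237, edgeR FDR 1.72e-09). In Rv1-Luc in FBS the vehicle replicates were uneven, 4.77, 14.3 and 10.5 CPM, yet all lay above the treated 2.64, 3.94 and 1.95 CPM. The change there was -1.77 ± 0.234, and it stayed called when any 1 library was left out, but not when the 2 groups were fitted alone (FDR 0.114). In dKO-8 (39.3, 40.4 and 40.0 to 11.6, 12.4 and 12.4 CPM) and dKO-19 (28.7, 27.2 and 25.4 to 6.51, 6.99 and 7.07 CPM) it fell by 1.71 and 1.98 on the log2 scale.

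DDIT4 and SESN2 encode inhibitors of mTORC1, the kinase complex that drives growth when amino acids are plentiful, and each was called lower in 3 of the 6 settings, the same 3: Rv1-Luc in CSS, dKO-8 and dKO-19. DDIT4 in dKO-19 was 113, 110 and 110 CPM under vehicle and 37.1, 39.3 and 41.0 CPM under SNX631, a log2 change of -1.50 ± 0.104 (edgeR FDR 9.16e-14). In dKO-8 it was 118, 121 and 126 CPM against 55.4, 53.7 and 53 CPM, a change of -1.17 ± 0.0987. In Rv1-WT in FBS, by contrast, vehicle (160, 153 and 147 CPM) and treated replicates (155, 127 and 146 CPM) overlapped, with a log2 value of -0.10 ± 0.0947. SESN2 in dKO-8 fell from 96.7, 96.6 and 93.0 CPM to 42.6, 45.2 and 43.2 CPM (-1.13 ± 0.0943), and in dKO-19 by 1.00 ± 0.102. In Rv1-Luc in FBS, SESN2 stood at 24.6, 42.6 and 33.9 CPM against 23.4, 28.0 and 21.6 CPM, and DDIT4 at 68.2, 69.9 and 68.7 CPM against 51.3, 39.2 and 67.3 CPM. Neither was called there, at -0.46 and -0.39. Without vehicle replicate 1 SESN2 was called at -0.65, and without SNX631 replicate 3 DDIT4 was called at -0.61.

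The transcription factors other than DDIT3 moved less, and those of their changes that were called lay close to the 1.5-fold limit. ATF4 was called lower in Rv1-Luc in CSS, from 641, 630 and 608 to 424, 400 and 396 CPM (log2 -0.62 ± 0.0525, edgeR FDR 5.52e-14), and in dKO-19, from 798, 753 and 776 to 515, 515 and 519 CPM (-0.59 ± 0.0523). In dKO-8 it was 869, 841 and 817 CPM under vehicle and 567, 558 and 578 CPM under SNX631, a 1.48-fold difference without overlap that fell just short. In Rv1-WT the log2 values were -0.16 in FBS and -0.11 in CSS. ATF3, a repressor and activator induced by many stresses, was called lower in dKO-8 (-0.60 ± 0.0548) and in Rv1-Luc in CSS (-0.59 ± 0.0593). These calls sit on the limit: ATF4 in dKO-19 was not called without vehicle replicate 1 (-0.57), ATF4 in dKO-8 was called without vehicle replicate 3 (-0.59), ATF3 in dKO-8 was not called without vehicle replicate 1 (-0.58) or SNX631 replicate 3, and ATF3 in Rv1-Luc in CSS was not called without vehicle replicate 1 (-0.52) or SNX631 replicates 1 or 3.

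ATF5, a stress factor that also guards mitochondrial proteins, was called in 0 of the 6 settings, yet its values split by line. In Rv1-WT and Rv1-Luc its replicates were lower under SNX631 without overlap in all 4 settings, with log2 values of -0.36, -0.56, -0.50 and -0.52 and edgeR FDR values of 4.09e-05 to 2.69e-09. In dKO-8, where it was low from the start, 16.2, 15.8 and 15.2 CPM stood beside 16.7, 15.8 and 15 CPM, a log2 value of 0.02 with a 95% interval of -0.15 to 0.18. In dKO-19 the value was -0.10. PPP1R15A, the phosphatase subunit, was likewise called in 0 of 6, from 0.11 in Rv1-Luc in FBS to -0.57 in Rv1-WT in CSS, where its replicates went from 86.5, 73.6 and 84.0 CPM to 58.3, 52.5 and 54.3 CPM. Without SNX631 replicate 1, both ATF5 (-0.64) and PPP1R15A were called lower in Rv1-WT in CSS, which makes 5 genes there. ATF5 was also called without vehicle replicate 1, and PPP1R15A without vehicle replicate 2 (-0.63). DESeq2 called neither ATF5 nor PPP1R15A in any of the 6.

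TRIB3 encodes a pseudokinase that binds ATF4 and CHOP and damps them. It was called lower in dKO-8, from 425, 404 and 401 to 250, 250 and 259 CPM (log2 -0.70 ± 0.0716, edgeR FDR 1.69e-09). In dKO-19 the replicates also did not overlap (280, 262 and 271 against 192, 200 and 201 CPM), at -0.46, under the limit. In FBS the vehicle and treated replicates of Rv1-WT overlapped (307, 299 and 323 against 321, 292 and 318 CPM), and the log2 value was 0 with an interval of -0.14 to 0.15. Rv1-Luc in FBS gave 0.02 (-0.13 to 0.17).

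**Figure D2:**
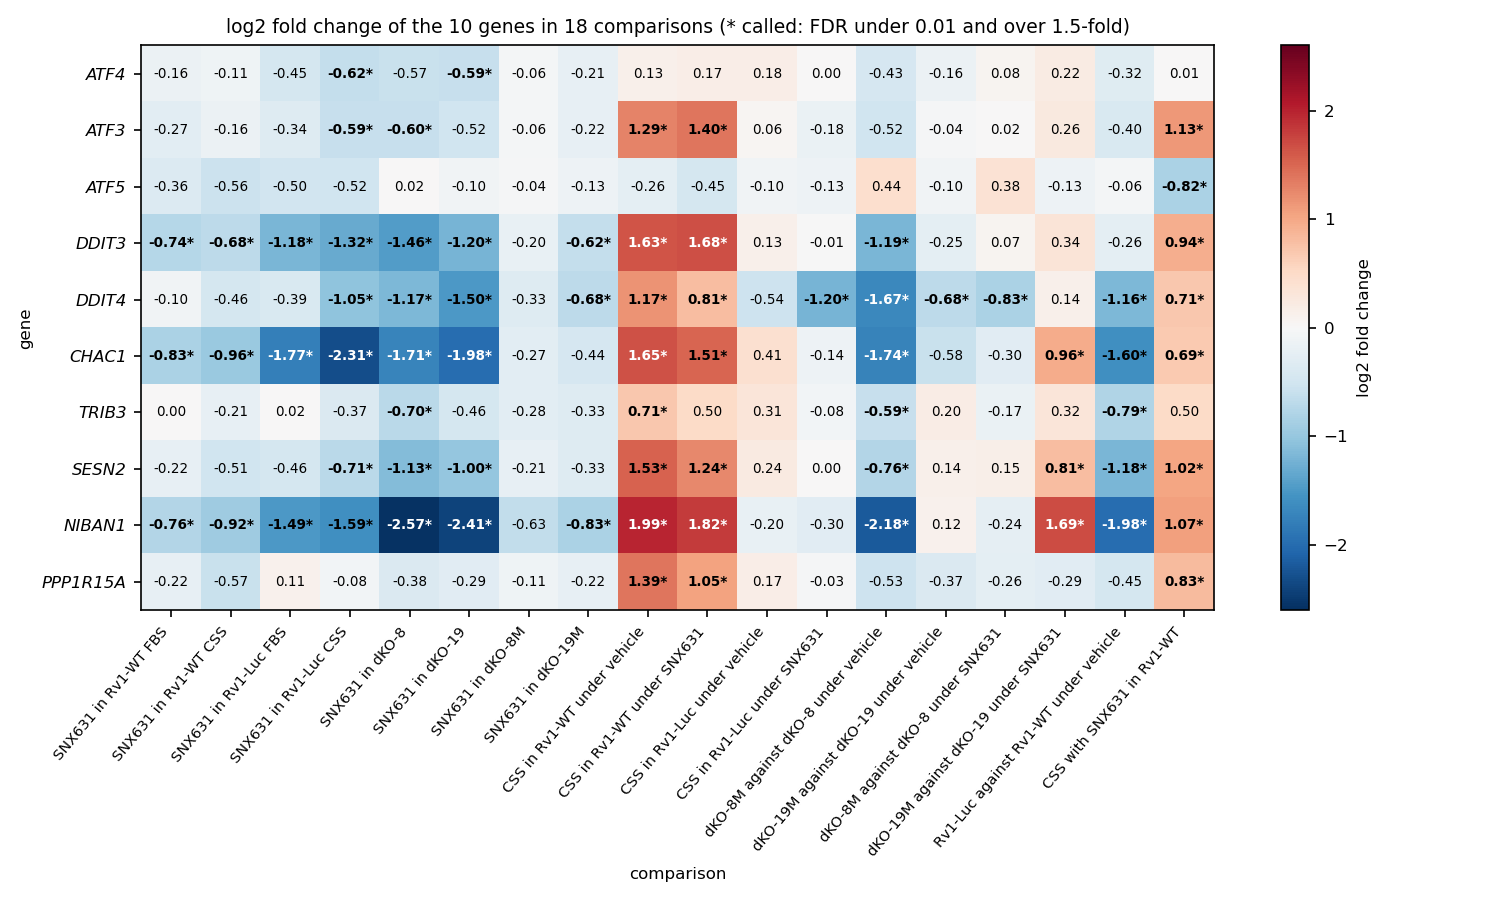
Log2 fold change of the 10 genes (rows) in 18 comparisons of 2 groups (columns), written in each cell and coloured from blue (lower) to red (higher); an asterisk and bold type mark called changes. The 6 columns of SNX631 with an active kinase hold 29 called values, all lower, and CSS in Rv1-WT under vehicle holds 8, all higher.

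SNX631 was also given to the kinase-dead lines. In dKO-8M, 0 of 10 genes were called lower by edgeR or by DESeq2, beside 0.015% of all genes, and 0 reached FDR under 0.05 (0.275% of all genes), although 5 had an unadjusted p under 0.05 (9.55% of all genes). Without a filter on low counts, or fitted on the compared groups alone, NIBAN1 (-0.63) was called there. All 10 log2 values were nevertheless below 0, with a median of -0.21, and 7 of 10 had replicates that did not overlap, against 21.0% of all genes. In dKO-19M, 3 of 10 genes were called lower, beside 0.06% of all genes, and 6 reached FDR under 0.05 (1.49%). Of these 3 calls, 1 (DDIT4) was kept when the compared groups were fitted alone, where the FDR was 0.0156 for DDIT3 and 0.0307 for NIBAN1, and 0 in a test against 1.5-fold. The median was -0.33. All 10 log2 values were below 0 in this line too, and 8 genes had replicates that did not overlap (15.6% of all genes).

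In dKO-19M, NIBAN1 was 7.98, 10.1 and 9.19 CPM under vehicle and 4.53, 5.10 and 5.58 CPM under SNX631, a log2 change of -0.83 ± 0.143 (edgeR FDR 0.000349). DDIT4 fell from 71.9, 68.9 and 66.9 to 43.4, 42.6 and 43.4 CPM (-0.68 ± 0.104, edgeR FDR 0.000161). DDIT3 fell from 39.6, 34.1 and 35.2 to 25.3, 22.3 and 23.6 CPM (-0.62 ± 0.0602), but was not called without vehicle replicate 1, the library that stood apart (-0.55), nor without SNX631 replicate 2. In dKO-8M, DDIT3 was 25.3, 25 and 26.8 CPM against 21.5, 23.2 and 22.2 CPM, and NIBAN1 4.61, 5.12 and 5.02 CPM against 3.33, 3.12 and 3.02 CPM. The mean SNX631 effect of the 2 dead lines, a contrast added after the data were seen, called NIBAN1 lower (-0.73 ± 0.114, edgeR FDR 5.18e-05), beside 0.08% of all genes. DDIT3 (-0.41), DDIT4 (-0.51) and TRIB3 (-0.30) also had FDR under 0.01 in it but changed less than 1.5-fold; 1.01% of all genes were lower at that FDR.

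Whether active and dead lines responded differently was tested as a difference of the 2 SNX631 effects. Each form of kinase was in a single derivative, so kinase activity and line cannot be told apart in these differences. Against dKO-8M, the effect in dKO-8 was lower for 5 of 10 genes (0.555% of all genes): DDIT3 by -1.25 ± 0.0864, DDIT4 by -0.84 ± 0.151, CHAC1 by -1.44 ± 0.242, SESN2 by -0.91 ± 0.135 and NIBAN1 by -1.94 ± 0.233, with edgeR FDR values from 7.86e-17 for DDIT3 to 0.000291 for DDIT4. Against dKO-19M, the effect in dKO-19 was lower for 4 of 10 (0.84% of all genes): DDIT4 (-0.82 ± 0.147), CHAC1 (-1.54 ± 0.248), SESN2 (-0.67 ± 0.139) and NIBAN1 (-1.58 ± 0.253). DDIT3 missed the fold limit there at -0.58 ± 0.0871 (edgeR FDR 1.13e-06) and was called in 5 of 12 fits that left out 1 library, at -0.65 without vehicle replicate 1 of dKO-19M. The differences for ATF4 were -0.51 and -0.38, with FDR 1.79e-06 and 0.000185, under 1.5-fold. For ATF5 they were 0.05 and 0.03. A test against 1.5-fold called 2 genes for CDK8 (DDIT3 and NIBAN1) and 1 for CDK19 (NIBAN1).

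A difference in response between cells with CDK8 and cells with CDK19 was not detected for any of the 10 genes. The SNX631 effect of dKO-19 minus that of dKO-8 was called for 0 of 10 genes by edgeR and by DESeq2, with 3 at an unadjusted p under 0.05 (16.6% of all genes); of all genes 0.305% were called lower and 0.58% higher. For CHAC1 the difference was -0.27 (95% interval -0.76 to 0.23), for NIBAN1 0.16 (-0.38 to 0.70), for DDIT4 -0.34 (-0.63 to -0.05) and for DDIT3 0.26 (0.09 to 0.43). These intervals leave room for differences past 1.5-fold in CHAC1, NIBAN1 and DDIT4 but not in DDIT3. The introduced kinases also differed in protein level relative to parental cells, as given above, so kinase and level cannot be told apart.

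**Figure D3:**
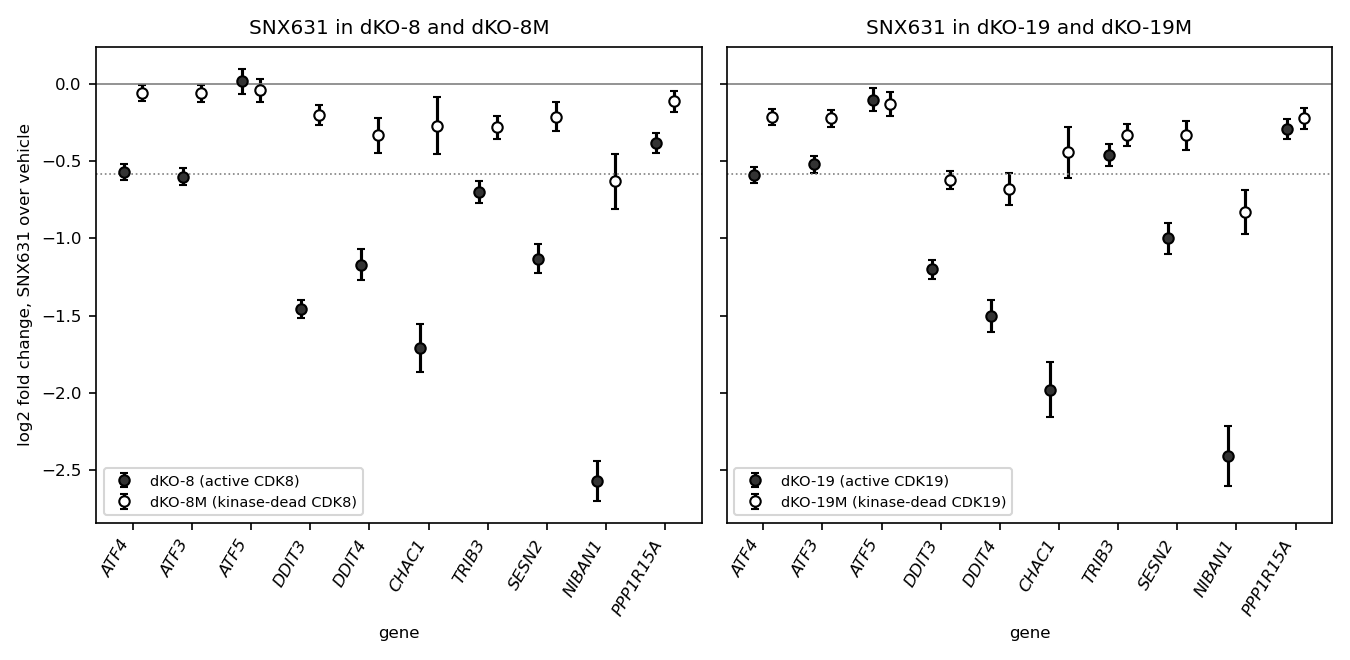
Log2 fold change under SNX631 of each of the 10 genes in the active-kinase line (filled) and its kinase-dead counterpart (open). CDK8 is on the left and CDK19 on the right. Bars are 1 SE from the joint fit of all 48 libraries, with 3 libraries a group. The dotted line marks a 1.5-fold drop. NIBAN1, CHAC1, DDIT4 and SESN2 lie lower with either active kinase, and ATF5 lies between 0.02 and -0.13 in all 4 lines.

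Each dead line was also compared with its active one under vehicle. The lines are separate derivatives that differ in the RNA level of the introduced kinase too, so kinase activity and line cannot be told apart here. For CDK8, 6 of 10 genes were lower in dKO-8M (4.07% of all genes). NIBAN1 was 22.6, 22.7 and 21.3 CPM in dKO-8 and 4.61, 5.12 and 5.02 CPM in dKO-8M, a log2 difference of -2.18 ± 0.124 (edgeR FDR 1.45e-19). CHAC1 differed by -1.74 ± 0.154 (39.3, 40.4 and 40.0 against 13.1, 10.9 and 11.5 CPM), DDIT4 by -1.67 ± 0.102 (118, 121 and 126 against 37.0, 39.0 and 38.8 CPM) and DDIT3 by -1.19 ± 0.0570. SESN2 (-0.76 ± 0.0921) and TRIB3 (-0.59 ± 0.0714) were lower too, TRIB3 not without vehicle replicate 1 of dKO-8 (-0.57). PPP1R15A (-0.53) was short of the limit and was called without vehicle replicate 2 of dKO-8M (-0.59). ATF5 stood higher in dKO-8M by 0.44, under the limit.

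For CDK19, fewer genes were called. DDIT4 was called lower in dKO-19M, 1 of 10 genes beside 3.87% of all genes: 113, 110 and 110 CPM in dKO-19 against 71.9, 68.9 and 66.9 CPM, a log2 difference of -0.68 ± 0.0964 (edgeR FDR 6.09e-07), not called in a test against 1.5-fold. CHAC1 was at -0.58 ± 0.149 and was called in 4 of 6 fits that left out 1 library (-0.65 without vehicle replicate 1 of dKO-19M, and also without dKO-19M replicate 2 or dKO-19 replicates 2 or 3), which makes 2 genes. NIBAN1 was level, 8.34, 8.22 and 8.51 against 7.98, 10.1 and 9.19 CPM. SESN2 stood at 0.14 and TRIB3 at 0.20. Whether the CDK8 and CDK19 pairs differ in this respect was not tested.

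The pairs were also compared under SNX631. Of the 10 genes, 1 was called lower in dKO-8M against dKO-8 (2.73% of all genes): DDIT4, at 30.1, 29.4 and 31.8 against 55.4, 53.7 and 53 CPM (-0.83 ± 0.110). In dKO-19M, 3 of 10 were higher than in dKO-19 (3.14% of all genes). NIBAN1 was 4.53, 5.10 and 5.58 CPM in dKO-19M against 1.63, 1.42 and 1.69 CPM in dKO-19 (1.69 ± 0.214, edgeR FDR 1.17e-08), CHAC1 14.9, 12.3 and 13 against 6.51, 6.99 and 7.07 CPM (0.96 ± 0.198) and SESN2 56.2, 53.5 and 53.3 against 32.6, 30.5 and 29.6 CPM (0.81 ± 0.103). In a test against 1.5-fold, DDIT4 was not called in dKO-8M, and NIBAN1 was the 1 gene called in dKO-19M. The inhibited dKO-19 cells thus held less of these 3 transcripts than inhibited cells with the dead kinase.

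Androgen-depleted serum raised most of the genes in Rv1-WT. Under vehicle, 8 of 10 were called higher in CSS than in FBS (6.09% of all genes). NIBAN1 rose from 56.2, 56.3 and 57.7 CPM to 246, 215 and 215 CPM, a log2 change of 1.99 ± 0.0792 (3.97-fold, edgeR FDR 1.54e-25). CHAC1 rose from 31.0, 25.3 and 32.8 CPM to 94.2, 90.6 and 94.9 CPM (1.65 ± 0.138), and DDIT3 from 68.4, 67.8 and 68.8 CPM to 216, 204 and 213 CPM (1.63 ± 0.0509). The mTORC1 inhibitors rose as well, SESN2 by 1.53 ± 0.0909 and DDIT4 by 1.17 ± 0.0920. So did PPP1R15A, from 30.8, 31.2 and 31.2 to 86.5, 73.6 and 84.0 CPM (1.39 ± 0.0677), ATF3 by 1.29 ± 0.0552 and TRIB3 by 0.71 ± 0.0720. ATF4 RNA was at 0.13 ± 0.0523, 693, 669 and 704 CPM in FBS beside 755, 744 and 755 CPM in CSS, and ATF5 at -0.26. Serum and plating density moved together in this comparison and cannot be told apart.

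Under SNX631 the same comparison called 7 of 10 genes higher (4.86% of all genes); TRIB3, at 0.50, was under the limit. The SNX631 effect in CSS minus that in FBS was called for 0 of 10 genes in Rv1-WT by edgeR and by DESeq2, while 0.05% of all genes were called lower and 0.245% higher. At an unadjusted p under 0.05 there were 5 (14.6% of all genes). Its largest values were -0.36 ± 0.130 for DDIT4 and -0.34 ± 0.0989 for PPP1R15A. Cells in CSS with the inhibitor were also compared with vehicle cells in FBS. In that comparison 7 of 10 genes were called higher (7.52% of all genes) and ATF5 lower (4.26%), while ATF4 and TRIB3 were not called. In it ATF3 stood 1.13 ± 0.0553 higher, NIBAN1 1.07 ± 0.0802, SESN2 1.02 ± 0.0916, DDIT3 0.94 ± 0.0515, PPP1R15A 0.83 ± 0.0696, DDIT4 0.71 ± 0.0923 and CHAC1 0.69 ± 0.143, the last not called without vehicle replicate 2 in FBS (0.58). ATF5 went from 52.2, 55.1 and 53.6 to 33.9, 28.8 and 28.6 CPM (-0.82 ± 0.0686, edgeR FDR 2.07e-15).

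In Rv1-Luc no such rise was called: 0 of 10 genes were called in CSS against FBS under vehicle by edgeR or by DESeq2, while 0.68% of all genes were called higher. At an unadjusted p under 0.05 there were 7 (25.8% of all genes). DDIT3 was 50.1, 60.8 and 60.6 CPM in FBS and 62.1, 62.9 and 62.4 CPM in CSS, and NIBAN1 11.0, 18.7 and 13.5 beside 12.9, 12.5 and 12.2 CPM. CHAC1 was at 0.41, but at 0.79 and called without vehicle replicate 2 in FBS, and at 0.06 without replicate 1. DDIT4 was on the lower side, 68.2, 69.9 and 68.7 CPM in FBS and 46.2, 46.7 and 48.9 CPM in CSS (-0.54, edgeR FDR 0.000246), under the fold limit. Under SNX631 DDIT4 was called lower in CSS, 1 of 10 genes beside 0.92% of all genes, at 51.3, 39.2 and 67.3 CPM in FBS against 26.4, 23.9 and 18.3 CPM (-1.20 ± 0.115, edgeR FDR 1.24e-09), but not with the 2 groups fitted alone (FDR 0.0795).

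The difference between the lines was tested. The CSS effect in Rv1-Luc minus that in Rv1-WT was lower for 7 of 10 genes (4.04% of all genes): NIBAN1 by -2.19 ± 0.136, DDIT4 by -1.72 ± 0.137, DDIT3 by -1.50 ± 0.0726, SESN2 by -1.29 ± 0.137, CHAC1 by -1.24 ± 0.228, PPP1R15A by -1.23 ± 0.0995 and ATF3 by -1.22 ± 0.0791, with edgeR FDR values from 3.90e-24 for DDIT3 to 4.51e-05 for CHAC1. CHAC1 was not called with the 4 groups fitted alone (FDR 0.0319) or against 1.5-fold (FDR 0.0326). TRIB3 was at -0.40, under the limit, and ATF4 at 0.05.

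Already in FBS under vehicle, Rv1-Luc held less RNA of 5 of 10 genes than Rv1-WT did (9.16% of all genes): NIBAN1 by -1.98 ± 0.0957 (11.0, 18.7 and 13.5 against 56.2, 56.3 and 57.7 CPM), CHAC1 by -1.60 ± 0.169, SESN2 by -1.18 ± 0.101, DDIT4 by -1.16 ± 0.0973 and TRIB3 by -0.79 ± 0.0734. All 10 log2 values were below 0, and CHAC1 was not called with the 2 groups fitted alone (FDR 0.0302). Between Rv1-Luc and Rv1-WT the SNX631 effect in FBS differed for 1 gene, NIBAN1, lower in Rv1-Luc (0.06% of all genes; -0.73 ± 0.159, edgeR FDR 0.00634). With a replicate block the FDR of NIBAN1 was 0.01 and it was not called, nor was it when the 4 groups were fitted alone (FDR 0.312). This call was lost in 9 of 12 fits that left out 1 library: the value was -0.49 without vehicle replicate 2 of Rv1-Luc and -0.90 without its replicate 1, in which fit CHAC1 was called too (-1.28). Within Rv1-Luc the SNX631 effects in CSS and FBS differed for 0 of 10 genes (0.025% of all genes called lower), with 4 at an unadjusted p under 0.05 (9.33% of all genes). DESeq2 called 1, and so did edgeR without SNX631 replicate 2 in FBS, where DDIT4 was at -0.84 against -0.66 in all libraries.

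The likeness of the 10 genes to each other was measured across the 16 groups. Pearson's r of the log2 group means, given as a description since the groups share scaling and lines, was 0.975 between TRIB3 and SESN2, 0.959 between ATF3 and SESN2, 0.953 between CHAC1 and SESN2 and 0.951 between DDIT3 and NIBAN1. ATF4 RNA was most like CHAC1 (0.919) and less like DDIT4 (0.663), PPP1R15A (0.655), DDIT3 (0.576) and NIBAN1 (0.559), with -0.173 for ATF5. ATF5 reached 0.235 with the mean of the 10 genes, itself included. The mean standardised level of the 10 genes was highest in Rv1-WT in CSS under vehicle (1.95) and lowest in Rv1-Luc in CSS under SNX631 (-1.17). The genes outside the list whose pattern was most like that mean over the 16 groups were SARS1 (r = 0.991), ASNS (0.984), SLC7A11 (0.983), CEBPG (0.982), SHMT2 (0.981), PCK2 (0.980), MTHFD2 (0.975), FYN (0.973), AARS1 (0.973) and C4orf33 (0.972). Of the 8 of these with a promoter window, the 3 printed above held TGATGNAAN, beside 4.45% of all genes with a window.

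Other genes of the pathway were counted from lists. The eIF2 kinases, eIF2 and its exchange factor eIF2B, which set the response off, made a list of 16 genes. In the 8 SNX631 settings 0 of the 16 were called by edgeR or DESeq2. Of all genes, 0.015% to 1.61% were called lower and 0% to 2.97% higher in these settings. At an unadjusted p under 0.05 there were 1 to 6 of 16, beside 9.55% to 35.9% of all genes. RNA counts do not show the activity of these kinases. Of 19 genes of amino acid synthesis and transport that ATF4 drives, 0, 2, 3 and 4 were called lower under SNX631 in Rv1-WT in FBS and CSS and Rv1-Luc in FBS and CSS, 10 in dKO-8, 14 in dKO-19, and 0 in either dead line. The list's median log2 change ran from -0.09 in Rv1-WT in FBS to -0.69 in dKO-19. ASNS, asparagine synthetase, was at -0.58 in Rv1-WT in FBS, just under the limit, and had called changes of -1.16 ± 0.0932 (dKO-8) and -1.22 ± 0.0955 (dKO-19), against values of -0.15 and -0.24 in dKO-8M and dKO-19M. SLC7A11, the cystine importer, fell by 1.39 ± 0.144 in Rv1-Luc in CSS. In CSS under vehicle 12 of the 19 were called higher in Rv1-WT (6.09% of all genes) and 0 in Rv1-Luc (0.68%). In Rv1-Luc 15 of the 19 had an unadjusted p under 0.05 (25.8% of all genes). Against the active line under vehicle, 11 were called lower in dKO-8M (4.07% of all genes) and 0 in dKO-19M (3.87%). In dKO-19M 13 of the 19 had an unadjusted p under 0.05 (41.1% of all genes). ASNS and AARS1 had fractional counts in 58.3% of libraries.

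The 8 tRNA synthetase and export genes and the 8 bZIP partners each had 1 gene called lower in Rv1-Luc in CSS, 2 in dKO-8 and 1 in dKO-19, and 0 in the other active settings. Among them SARS1 fell by 0.67, 0.69 and 0.64 in Rv1-Luc in CSS, dKO-8 and dKO-19. CEBPG, a partner of ATF4, changed by -0.66 (Rv1-Luc, CSS) and -0.67 (dKO-8), and CEBPB by -0.83 (dKO-8) and -0.80 (dKO-19). Of 13 other effectors of ATF4 and CHOP, 0, 1, 0, 1, 2 and 3 were called lower in the 6 active settings. Of all genes, 0.645% to 1.61% were called lower in those settings. STC2, a secreted glycoprotein, changed by -0.72 ± 0.0623 (dKO-8) and -0.92 ± 0.0650 (dKO-19); its values of -0.36 and -0.53 in dKO-8M and dKO-19M had edgeR FDR under 0.01 but were under 1.5-fold. NUPR1, a stress-induced chromatin protein, changed in CSS by -0.65 (Rv1-WT) and -0.90 (Rv1-Luc), with fractional counts in 62.5% of libraries. FGF21 was called lower in dKO-8 and dKO-19 on few reads, 10, 11 and 20 counts against 2, 5 and 6 in dKO-8.

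The other arms of the unfolded protein response were counted too. Of 19 genes of the ATF6 and XBP1 arms, which raise chaperones of the endoplasmic reticulum, some were called lower under SNX631. The counts were 4 and 0 in Rv1-WT (FBS, CSS), 4 and 5 in Rv1-Luc (FBS, CSS) and 0 in dKO-8 and dKO-19. Of all genes, 0.645% to 1.61% were called lower in these settings. In dKO-8 and dKO-19, 12 and 8 of the 19 had an unadjusted p under 0.05 (25.3% and 30.8% of all genes). The 19 log2 values ran from -0.49 to 0.3 in dKO-8 and from -0.58 to 0.19 in dKO-19. The 10 stress regulators had 3, 3, 3, 7, 7 and 6 called lower in these 6 settings. HSP90B1, the chaperone GRP94, changed by -0.67 ± 0.0408 (Rv1-WT, FBS), -1.03 ± 0.0408 (Rv1-Luc, FBS) and -0.94 ± 0.0408 (Rv1-Luc, CSS), and was at 0.16 in dKO-8 and 0.14 in dKO-19. PDIA4, a disulfide isomerase, fell by 0.69, 1.08 and 1.16 in the same 3 settings and was at 0.18 and 0.05 in dKO-8 and dKO-19. In CSS under vehicle 10 of the 19 were lower (4.78% of all genes) and 2 higher in Rv1-WT, while 8 of the 10 stress regulators were higher. HSP90B1 had fractional counts in 50% of libraries. The difference between the lists was not tested.

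Of 9 tested paralogs and relatives of the 10 genes, 2, 3, 2, 1, 1 and 2 were called higher and 0, 1, 0, 1, 1 and 0 lower in the 6 active settings. DDIT4L, the paralog of DDIT4 that also restrains mTORC1, was called higher under SNX631 in all 6 active settings, by 0.96, 0.94, 1.63, 1.85, 0.92 and 1.59 on the log2 scale in the order Rv1-WT in FBS and CSS, Rv1-Luc in FBS and CSS, dKO-8 and dKO-19. Of all genes 1.75%, 2.97%, 2.32%, 2.45%, 0.655% and 1.87% were called higher there, and 0.645% to 1.61% lower. In the dead lines DDIT4L was at 0.07 and -0.29. SESN3, a paralog of SESN2, rose by 1.03 ± 0.0831 in dKO-19, and JDP2, a relative of ATF3, fell by 1.04 ± 0.195 in dKO-8. Since hypoxia also induces DDIT4, 11 hypoxia genes were counted. Under SNX631, 3 were called lower in Rv1-Luc in CSS (1.61% of all genes) and 3 in dKO-19 (1.53%). Among them were NDRG1 (-1.25 and -1.34) and BNIP3 (-0.77 and -0.71). The other was FGF11 in Rv1-Luc and VEGFA in dKO-19. None of the 11 was called lower in dKO-8 (1.05% of all genes), where NDRG1 was at -0.30 while DDIT4 fell by 1.17. EGLN3 was called higher there (0.65), as it was in Rv1-WT in FBS (0.63) and CSS (1.75). NDRG1 went the other way in Rv1-WT in CSS, where it was called higher. In dKO-8M 2 of the 11 were called lower, ADM and FGF11, where 3 of all 20009 genes were (0.015%). DESeq2 called 1 of the 11 there. NDRG1 had fractional counts in 47.9% of libraries. Of 12 p53 targets, which SESN2 can also be counted among, 1 each was lower in Rv1-WT in CSS, Rv1-Luc in CSS and dKO-19. Of all genes 1.25%, 1.61% and 1.53% were called lower there. CDKN1A, the cell cycle inhibitor p21, fell by 0.59 ± 0.0501 in Rv1-WT in CSS and by 0.67 ± 0.0462 in dKO-19, and the gene in Rv1-Luc was TP53I3, on few reads (15, 17 and 26 counts against 5, 7 and 7). The part of hypoxia or p53 signals in the results was not tested.

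**Figure D4:**
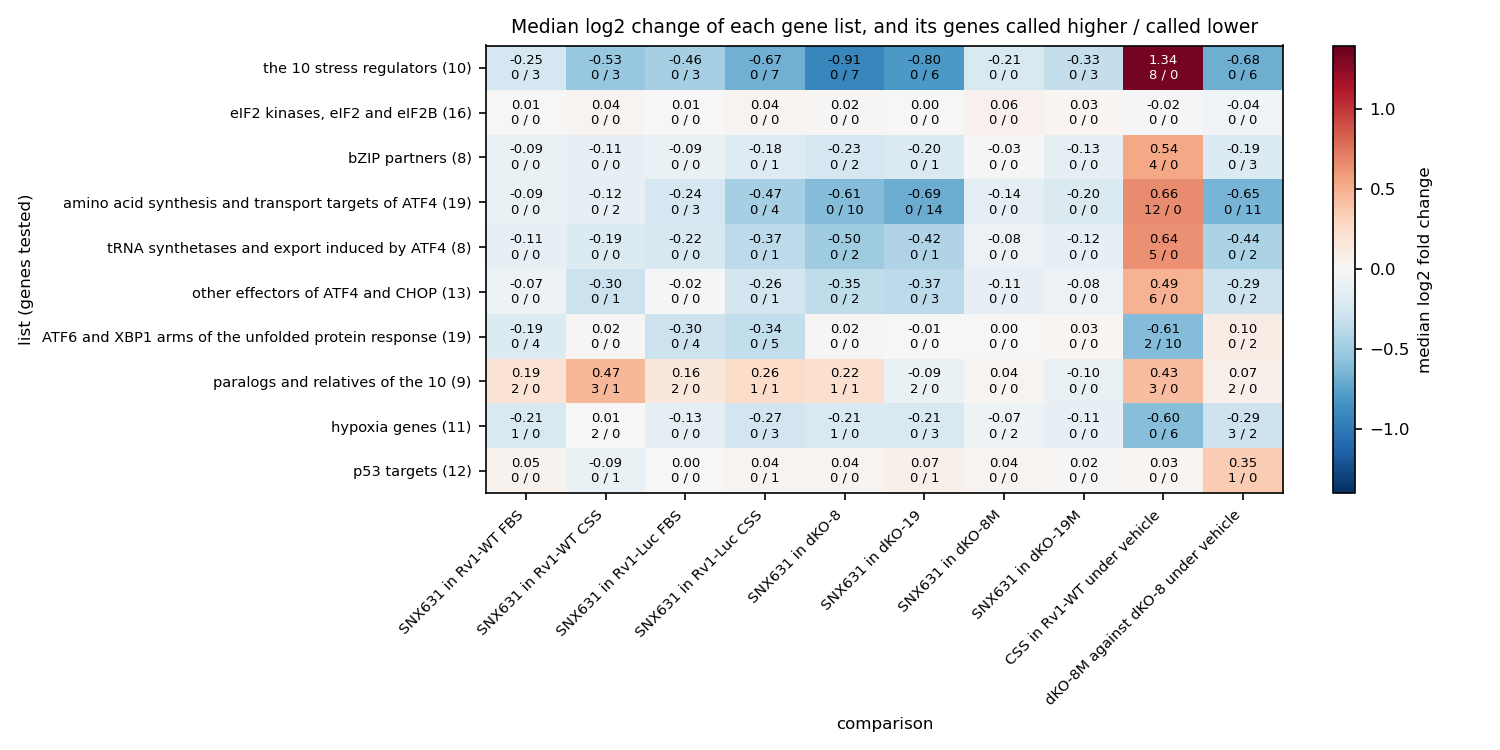
Median log2 change of each gene list (rows), with the number of its genes called higher and lower written in each cell. Columns are the SNX631 comparisons, CSS in Rv1-WT under vehicle, and dKO-8M against dKO-8 under vehicle. The 10 stress regulators have medians of -0.91 and -0.80 under SNX631 in dKO-8 and dKO-19, and the amino acid genes -0.61 and -0.69. The ATF6 and XBP1 list has medians of 0.02 and -0.01 and 0 called in these 2 columns. Of all genes, 1.05% and 1.53% were called lower there.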

How the data were processed

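RNA-Seq libraries were made with a directional kit from 48 cultures, 3 per group and described as biological triplicates, and were grouped by their labels. The submitters' processing notes name FastQC, cutadapt 2.8, STAR 2.7.2b, featureCounts, Subread 2.0.3 and the builds GRCh38.p13 and GRCm39. The strand setting of the counting and the annotation release are not given in the sources used here. The deposited values are estimated counts per gene, which the authors did not normalize; 81.6% of nonzero values were whole. Depth was 13231860 to 31496134 counts per library.

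Counts were rounded, 2 of 61817 entries that hold transgenes were left out, and filterByExpr (minimum count 10, minimum total 15) kept 20009 of 61815 genes. All 48 libraries were fitted together in edgeR 4.0.16 (R 4.3.3) with a mean for each of 16 groups and 32 residual degrees of freedom, after TMM scaling (factors 0.911 to 1.07). The quasi-likelihood F-test was applied to 18 comparisons of 2 groups and 7 differences of effects, with Benjamini-Hochberg adjustment within each. A call needed FDR under 0.01 with over 1.5-fold change. Each SE is the absolute log2 change divided by the square root of F. The procedure was tested on simulated counts. Alternatives were other scalings and filters, unrounded counts, a replicate block, a test against the fold limit, a looser FDR, fits of the compared groups alone, DESeq2 1.42.0 and leaving out each library.

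Gene positions came from a GENCODE annotation of GRCh38 and promoter windows from RefSeq (GRCh38.p14). The 10 genes and the pathway lists were chosen with earlier results of these data known, so counts over them are descriptions. Genes were named by rule: the 10 in every comparison, up to 3 per pathway list called in the same direction in most of the 6 settings with an active kinase (ties by mean log10 FDR), and the 10 others closest in pattern by Pearson's r over the group means. The rule also picked SLC7A5, XPOT and HERPUD1, called lower in 3, 1 and 3 of the 6 settings, which are not described above. ADM, FGF11 and VEGFA were named after their values were seen. The mean of the kinase-dead lines and the list counts by DESeq2 and by unadjusted p were added then too. The level of 1 luminal marker gene is not reported here.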

Additional observations from a re-analysis of the deposited data

Results flagged for a closer look

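For the genes below the effect of SNX631 or of CSS differed between lines, in a test of the difference itself (edgeR, FDR under 0.01 and over 1.5-fold). Differences are on the log2 scale, 3 libraries a group.

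The SNX631 effect was lower in dKO-8 than in dKO-8M for DDIT3 (-1.25, FDR 7.86e-17), DDIT4 (-0.84, FDR 0.000291), CHAC1 (-1.44, FDR 0.000109), SESN2 (-0.91, FDR 1.47e-05) and NIBAN1 (-1.94, FDR 4.89e-08). It was lower in dKO-19 than in dKO-19M for DDIT4 (-0.82, FDR 0.000148), CHAC1 (-1.54, FDR 3.01e-05), SESN2 (-0.67, FDR 0.000844) and NIBAN1 (-1.58, FDR 9.87e-06).

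In FBS the SNX631 effect on NIBAN1 was lower in Rv1-Luc than in Rv1-WT by -0.73 (FDR 0.00634). It was not called with a replicate block (FDR 0.01), with the 4 groups fitted alone (FDR 0.312) or in 9 of 12 fits that left out 1 library, with -0.49 without vehicle replicate 2 of Rv1-Luc.

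The CSS effect under vehicle was lower in Rv1-Luc than in Rv1-WT for ATF3 (-1.22, FDR 4.29e-19), DDIT3 (-1.50, FDR 3.90e-24), DDIT4 (-1.72, FDR 3.21e-12), CHAC1 (-1.24, FDR 4.51e-05), SESN2 (-1.29, FDR 1.58e-09), NIBAN1 (-2.19, FDR 1.08e-17) and PPP1R15A (-1.23, FDR 2.46e-15).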

How the results depend on the processing

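Of 250 values (10 genes in 25 comparisons), 0 changed direction while called. The call was kept for 249 under DESeq2's size factors, 246 under library size alone, 247 without a filter, 249 with unrounded counts, 246 with DESeq2 and 241 in fits of the compared groups alone. In no comparison was the correlation of same-numbered replicates over 0.1 for all 3 numbers, although all 3 were above 0 for SNX631 in dKO-19M (0.229, 0.112 and 0.051) and in Rv1-WT in FBS (0.046, 0.038 and 0.043), so the numbers were not taken as pairs; the replicate block changed 1 of 250 calls, NIBAN1 for Rv1-Luc minus Rv1-WT in FBS, and left 0 genes there. The counts of called genes that moved by over 1.5 times follow. Without a filter they were 1 for SNX631 in dKO-8M, 1 for CSS minus FBS in Rv1-Luc and 2 for Rv1-Luc minus Rv1-WT in FBS. In fits of the compared groups alone they were 1 for SNX631 in dKO-8M, 1 in dKO-19M, 0 for CSS in Rv1-Luc under SNX631 and 0 for Rv1-Luc minus Rv1-WT. DESeq2 gave 2 for dKO-19M against dKO-19 under vehicle and 1 for CSS minus FBS in Rv1-Luc. Tested against 1.5-fold, which asks more than the limit on the estimate, SNX631 called 0 in Rv1-WT in FBS, 1 in Rv1-WT (CSS), 4 in Rv1-Luc (CSS) and 0 in dKO-19M. The dead lines against the active ones then had 0 (dKO-19M, vehicle), 0 (dKO-8M, SNX631) and 1 (dKO-19M, SNX631), and the differences of SNX631 effects 2 (dKO-8 minus dKO-8M), 1 (dKO-19 minus dKO-19M) and 0 (Rv1-Luc minus Rv1-WT). At FDR under 0.05 with no fold limit, SNX631 called 7 and 9 in Rv1-WT (FBS, CSS), 8 in Rv1-Luc (FBS) and 6 in dKO-19M, beside 14.5%, 26.5%, 20.3% and 2.41% of all genes. CSS in Rv1-Luc then gave 3 under vehicle and 2 under SNX631 (14.0% and 12.7% of all genes). dKO-8M against dKO-8 gave 10 and 3 (30.5% and 22.7% of all genes) and dKO-19M against dKO-19 gave 6 and 8 (33.3% and 30.7%), under vehicle and SNX631, and Rv1-Luc against Rv1-WT 9 (52.5%). The differences of SNX631 effects gave 8 (dKO-8 minus dKO-8M), 7 (dKO-19 minus dKO-19M), 1 (CSS minus FBS, Rv1-WT), 1 (CSS minus FBS, Rv1-Luc) and 3 (Rv1-Luc minus Rv1-WT), beside 6.20%, 9.87%, 3.13%, 0.51% and 1.48% of all genes. Apart from the 2 changes of threshold, the cause was not tested.

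With 1 library left out, 1881 of 1920 calls were kept. The count ranged from 3 to 5 for SNX631 in Rv1-WT in CSS, from 0 to 1 for CSS in Rv1-Luc under vehicle and for CSS minus FBS in Rv1-Luc, from 1 to 2 for dKO-19M against dKO-19 under vehicle and from 0 to 2 for Rv1-Luc minus Rv1-WT in FBS. Every other count stayed within 1.5 times. With 3 libraries a group, calls near 1.5-fold, such as ATF4 and ATF3, turn on single libraries. The knockout lines are derivatives of 1 cell line, and RNA counts do not show ATF4 translation.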
